A study of Saccharomyces cerevisiae with 6 samples.

Results

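The genes of glycolysis, ethanol fermentation and glycerol synthesis were followed in Saccharomyces cerevisiae treated with linoleic acid hydroperoxide (LoaOOH), an oxidation product of a polyunsaturated fatty acid that is used to impose oxidative stress. A list of 32 genes was matched by symbol to the array's annotation, and 31 of them were measured, each by 1 probe set, among 5449 genes in all. TDH2, a glyceraldehyde-3-phosphate dehydrogenase gene, had no annotated probe set and was not analysed here. The study held 6 cultures of BY4743, a diploid laboratory strain, grown in minimal medium at 30 °C to exponential phase. LoaOOH cultures received 75 µM LoaOOH, which the labels call an arresting concentration, and methanol cultures received the same volume of solvent alone. All were harvested after 1 h, and each group had 3 biological replicates, each hybridised to its own Affymetrix Yeast_2 array. The values are log2 signals made by the authors with RMA, and a difference is always LoaOOH minus methanol.

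Glycolysis turns glucose into pyruvate with a net gain of ATP, and yeast growing on glucose sends most of that pyruvate through acetaldehyde to ethanol, which returns the NADH made on the way to NAD. A side branch reduces dihydroxyacetone phosphate to glycerol, which also uses up NADH and serves as the osmolyte of this yeast. Many steps are shared by several isozymes, of which a main form carries most of the flux on glucose and the others are made in quantity on other carbon sources or under stress. Glyceraldehyde-3-phosphate dehydrogenase is known in yeast as a protein that peroxides inactivate, so this pathway is often examined in oxidative stress. The comparison asks which of these messages changed with LoaOOH, and whether main and other isozymes differ alike.

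In the deposited values the pathway did not move as a block. Of the 31 genes, 12 rose, 10 fell and 9 were not called by limma at an adjusted p under 0.05, where 36.8% of all 5498 probe sets with a gene rose and 41.9% fell. The 22 called members are 71% of the list, against 78.7% of all probe sets. The median difference of the members was -0.0093 on the log2 scale and that of all probe sets was -0.0341. Groups did not overlap in 26 of the 31 genes, or 83.9%, against 81.1% of all probe sets. Most changes were modest: 4 members, PDC6, EMI2, ADH5 and GPM2, differed by 0.5 or more on the log2 scale, which is 12.9% of the list against 33.3% of all probe sets. Members of the sugar kinases, of the last steps to ethanol and of the glycerol phosphatases accounted for 10 of the 12 rises. With these values and this fit, no gene between phosphoglucose isomerase and pyruvate kinase rose apart from the pair of kinases that make the activator of phosphofructokinase. Scaled to the spike-ins described below, 24 of the 31 members were called higher, FBA1, TPI1, TDH3 and PGK1 among them.

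**Figure D1:**
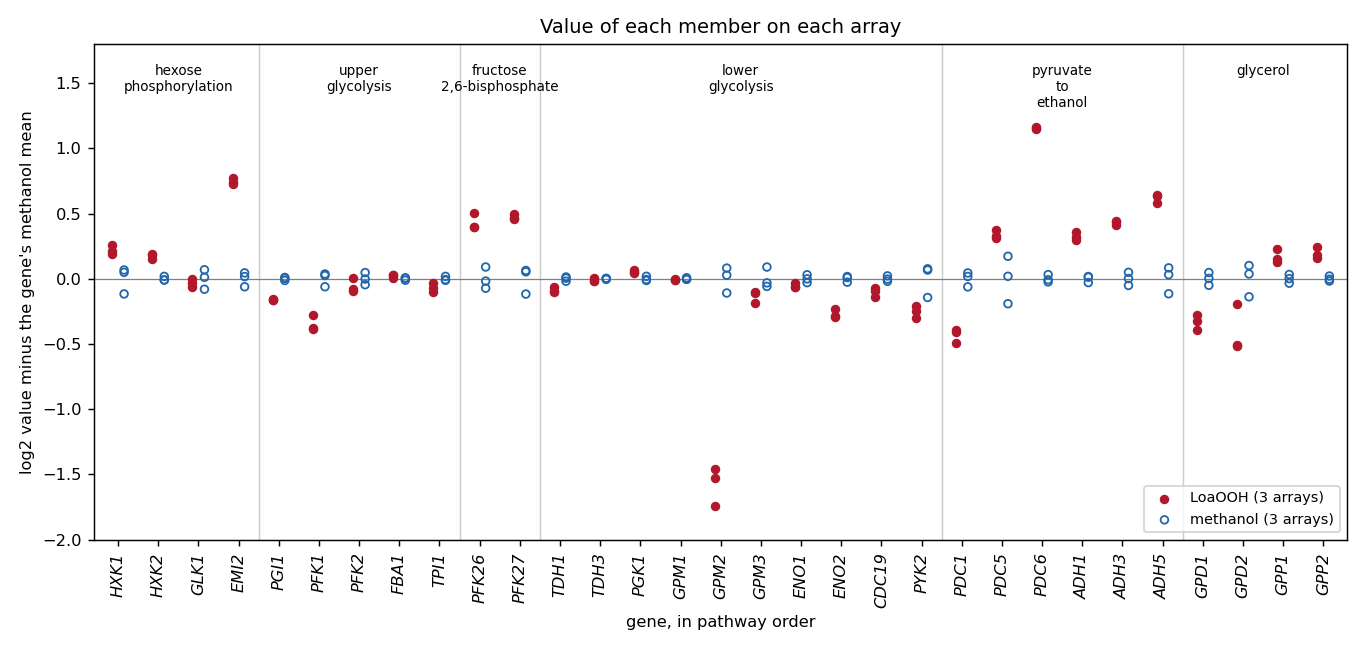
Log2 value of each of the 31 measured genes on each array, minus that gene's mean over the 3 methanol arrays; filled points are LoaOOH arrays and open points methanol arrays, and genes stand in pathway order. PDC6, EMI2 and ADH5 lie highest and GPM2 lowest, while TDH3, GPM1 and FBA1 lie near 0; the other falls turn positive when arrays are scaled to the spike-ins.

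Array-wide scaling sets the sign of the small falls. Bacterial poly-A control transcripts are added to the sample as spike-ins, and their 42 probe sets averaged 6.50 ± 0.116 in LoaOOH arrays and 6.95 ± 0.142 in methanol arrays (SD, n = 3 each; exact two-sided permutation p = 0.1, the smallest that 3 against 3 arrays allow). Scaled to these, every log2 difference moved up by 0.444, and the median of all probe sets became 0.41. The 17 ribosomal RNA probe sets were all lower in LoaOOH arrays, by a mean log2 difference of -0.64 (exact permutation p = 0.1), and the hybridisation controls differed by -0.02 (exact permutation p = 0.8). On that scale 25 of the 31 members were called, against 72.3% of all probe sets. Of these, 24 were higher, where 62.1% of all probe sets were, and 1 was lower, GPM2, where 10.2% of all were. All 9 other falls turned positive there, 3 of them called higher (PGI1, GPM3 and CDC19). The text gives directions in the deposited scaling, where 0 is close to the median message, and a ratio of a pair of genes on the same array does not depend on this choice. Of the strain's marker genes, which are deleted in whole or part, URA3 lay at 3.25 to 3.85, below the brightest tag control probe set at 5.146. LEU2, at 5.23 to 5.67, lay just above that level, while HIS3 gave 10.95 to 12.46. LEU2 and HIS3 were called higher, by 0.25 and 1.43 on the log2 scale, and why HIS3 gave signal was not tested. Among 7 genes of haploid cells values ran from 5.20 to 8.53, so their means also lay above the tag control. Their differences ran from -0.89 to 0.32, and 4 were called, where 78.7% of all probe sets were. GPD2 on all arrays and PDC6 on methanol arrays lay within that range of values. So did ADH2, DAK2 and FBP1, named below, on all arrays and PCK1 on methanol arrays. How far such low values follow the message was not tested.

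Sugar kinases that trap hexose in the cell rose in 3 of 4 cases, where 36.8% of all probe sets rose. EMI2, a glucokinase-type gene and the paralog of GLK1, had values of 11.83, 11.78 and 11.80 in LoaOOH cultures, against 11.10, 11.07 and 10.99 in methanol cultures. Every LoaOOH culture lay well above every methanol culture, and the rise was 1.68-fold (n = 3 per group; log2 difference 0.75 with SE 0.045, adjusted p = 6.13e-07). HXK1, the hexokinase that glucose represses, had values of 13.75, 13.83 and 13.78 in LoaOOH cultures, against 13.62, 13.63 and 13.45 in methanol cultures. HXK2, the main hexokinase on glucose and a partner in glucose repression, had 13.56, 13.52 and 13.55 in LoaOOH cultures, against 13.36, 13.39 and 13.36 in methanol cultures. Both rose slightly without overlap of the groups, by 1.16-fold for HXK1 (adjusted p = 0.00633) and by 1.13-fold for HXK2 (adjusted p = 0.00298). GLK1, the glucokinase, averaged 13.73 ± 0.029 in LoaOOH cultures and 13.76 ± 0.075 in methanol cultures, and its groups overlapped (log2 difference -0.03, 95% confidence interval -0.15 to 0.08, adjusted p = 0.558).

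In upper glycolysis, from glucose 6-phosphate to the triose phosphates, 2 of 5 genes fell and none rose. The share of falls was 40%, against 41.9% of all probe sets, of which 36.8% rose. Both falls turn positive in the spike-in scaling. PFK1, the alpha subunit of phosphofructokinase, had values of 13.19, 13.09 and 13.08 in LoaOOH cultures, against 13.49, 13.50 and 13.41 in methanol cultures. The groups did not overlap, and PFK1 fell 1.27-fold (difference of -0.35 with SE 0.050, adjusted p = 0.000168; 0.10, not called, in the spike-in scaling). PFK2, the beta subunit of the same enzyme, averaged 13.60 ± 0.056 in LoaOOH cultures and 13.65 ± 0.046 in methanol cultures and was not called (-0.06, adjusted p = 0.309). The PFK2 to PFK1 ratio was 1.22-fold higher in LoaOOH cultures, with no overlap of the groups (exact permutation p = 0.1). PGI1, phosphoglucose isomerase, fell 1.12-fold (-0.16, adjusted p = 0.00455; 0.29 and called higher in the spike-in scaling). FBA1, the aldolase (0.02, adjusted p = 0.674), and TPI1, triose phosphate isomerase (-0.07, adjusted p = 0.16), were not called.

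The genes for the kinases that make the allosteric activator of phosphofructokinase both rose. PFK27 had values of 10.81, 10.80 and 10.85 in LoaOOH cultures, against 10.41, 10.40 and 10.23 in methanol cultures. PFK26 had 10.95, 11.06 and 10.96 in LoaOOH cultures, against 10.65, 10.54 and 10.49 in methanol cultures. In neither gene did the groups overlap, and the rises were close in size, 1.39-fold for PFK27 (adjusted p = 4.89e-05) and 1.35-fold for PFK26 (adjusted p = 8.77e-05). Their ratio differed little between groups (PFK26 minus PFK27, change of -0.04, exact permutation p = 0.7).

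**Figure D2:**
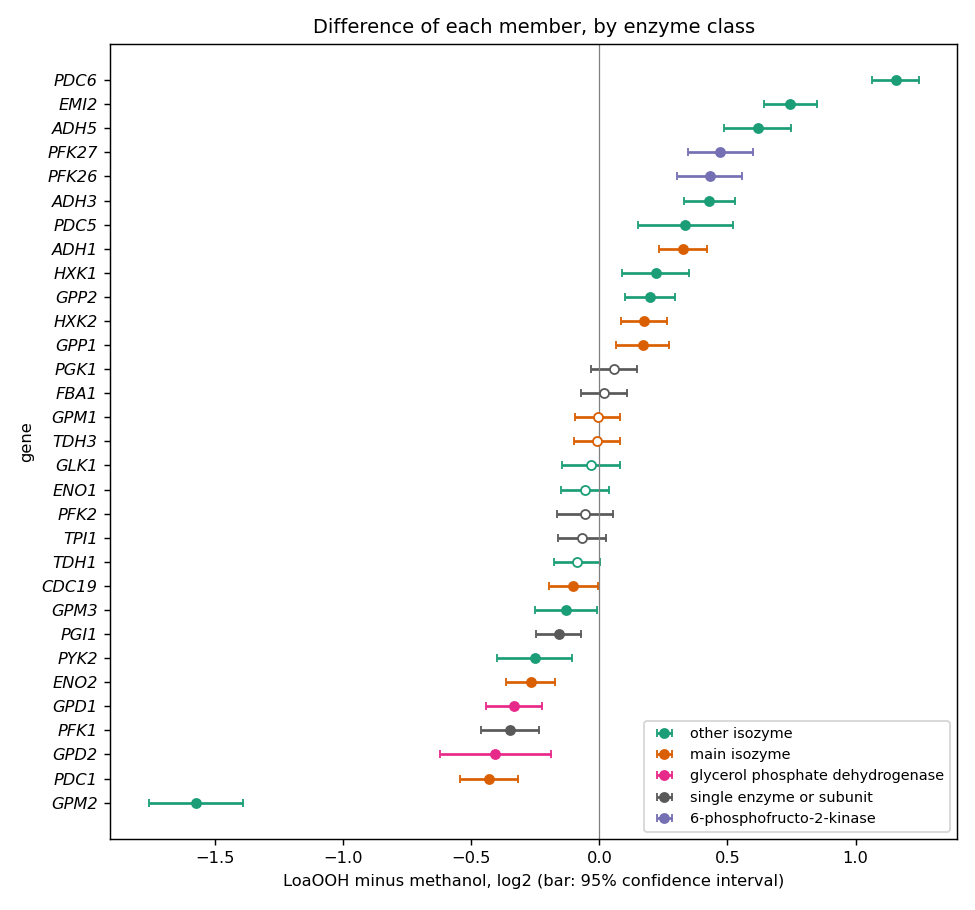
LoaOOH minus methanol difference of each measured gene on the log2 scale, with its 95% confidence interval from limma; colours mark main isozymes, other isozymes, single enzymes or subunits, 6-phosphofructo-2-kinases and glycerol phosphate dehydrogenases, and open points were not called. PDC6 (1.16), EMI2 (0.75) and ADH5 (0.62) stand at the top, and GPM2 (-1.58) stands apart at the bottom; the other differences below 0 turn positive in the spike-in scaling.

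Lower glycolysis, from glyceraldehyde 3-phosphate to pyruvate, had 5 falls and 5 genes not called among 10 measured. The share of falls was 50%, against 41.9% of all probe sets, of which 36.8% rose. All falls but that of GPM2 turn positive in the spike-in scaling. GPM2, a homologue of phosphoglycerate mutase that does not replace the enzyme in the cell, had values of 9.92, 10.21 and 10.14 in LoaOOH cultures, against 11.56, 11.75 and 11.69 in methanol cultures. All LoaOOH cultures lay more than 1 log2 unit below all methanol cultures. GPM2 fell 2.98-fold (difference of -1.58 with SE 0.081, adjusted p = 2.11e-07; -1.13 in the spike-in scaling). It was the only member called lower in both scalings. GPM3, the other such homologue, averaged 10.20 ± 0.049 in LoaOOH cultures and 10.33 ± 0.079 in methanol cultures. Its small difference passed narrowly (-0.13, adjusted p = 0.0458; 0.31 and called higher in the spike-in scaling). It was no longer called with quantile normalisation, median centring or array weights and without any of LoaOOH replicates 1, 2 and 3 or methanol replicates 2 and 3, with adjusted p up to 0.128 among the left-out arrays. The active mutase gene, GPM1, averaged 14.96 ± 0.002 in LoaOOH cultures and 14.96 ± 0.007 in methanol cultures (-0.01, adjusted p = 0.894).

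GPM2 lies beside GPD1 in the gene order of assembly R64, the only such pair of neighbours among the measured members. GPD1 fell by 0.33 on the log2 scale (0.11, without a call, when scaled to the spike-ins), less than GPM2 did, and RPN4, the proteasome activator gene on the other side of GPM2, rose by 1.25 (adjusted p = 2.86e-07).

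Glyceraldehyde-3-phosphate dehydrogenase genes were not called. TDH3, the main isozyme, had values of 15.09, 15.06 and 15.06 in LoaOOH cultures, against 15.08, 15.08 and 15.08 in methanol cultures (-0.01, 95% confidence interval -0.10 to 0.08, adjusted p = 0.833). TDH1, an isozyme known from stationary and stressed cells, had 14.58, 14.63 and 14.59 in LoaOOH cultures, against 14.70, 14.69 and 14.67 in methanol cultures (-0.09, adjusted p = 0.073). TDH1 groups did not overlap although the difference missed the threshold, and quantile normalisation and array weights called it lower while the spike-in scaling called it higher at 0.36 (adjusted p of all its alternatives 0.00246 to 0.242). The array also carries 4 quality control probe sets for TDH1, which the annotation does not name and which were not in the fit. Their differences were -0.09 for the 5′ end, -0.12 for the middle and -0.09 for the 3′ end (exact permutation p = 0.1 each), and -0.03 for a further middle set (exact permutation p = 0.3). All 4 were thus slightly below 0, like the annotated TDH1 probe set.

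The enolase, phosphoglycerate kinase and pyruvate kinase genes differed little. ENO2, the enolase that glucose induces, had values of 14.48, 14.43 and 14.42 in LoaOOH cultures, against 14.73, 14.72 and 14.69 in methanol cultures. It fell 1.20-fold without overlap (-0.27, adjusted p = 0.00028; 0.18, not called, in the spike-in scaling). ENO1, its near-identical partner that is more evenly made, averaged 14.70 ± 0.020 in LoaOOH cultures and 14.76 ± 0.030 in methanol cultures and was not called (-0.06, adjusted p = 0.239). PGK1, phosphoglycerate kinase, was not called either (0.06, adjusted p = 0.216). CDC19, the main pyruvate kinase, was barely called at -0.10 (adjusted p = 0.0492). The call was lost with quantile normalisation, median centring, the replicate block and the leaving out of any of the 6 arrays (adjusted p of 0.0615 to 0.164 for the last), and the spike-in scaling called CDC19 higher at 0.34. PYK2, a second pyruvate kinase that glucose represses, had 10.21, 10.30 and 10.26 in LoaOOH cultures, against 10.58, 10.59 and 10.37 in methanol cultures. It fell 1.19-fold (-0.25, adjusted p = 0.00578; not called at 0.19 when scaled to the spike-ins). The groups were apart although methanol replicate 3 lay close to the LoaOOH cultures.

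From pyruvate to ethanol all 6 genes were called, 5 higher and 1 lower. Among all probe sets 78.7% were called, 36.8% higher and 41.9% lower, or 62.1% and 10.2% in the spike-in scaling. In this branch the isozymes of a single step went opposite ways in the deposited scaling. PDC6, a minor pyruvate decarboxylase whose protein is poor in sulfur amino acids and which yeast makes when sulfur is short, had values of 8.85, 8.85 and 8.84 in LoaOOH cultures, against 7.68, 7.72 and 7.67 in methanol cultures. The replicates of each group lay close together and far from the other group, but the methanol values lie within the range of the haploid genes. PDC6 rose 2.23-fold (difference of 1.16 with SE 0.040, adjusted p = 2.21e-08), the largest rise among the members. PDC5, a second minor isozyme that replaces PDC1 when that gene is lost, had 10.63, 10.59 and 10.57 in LoaOOH cultures, against 10.43, 10.28 and 10.07 in methanol cultures. Its rise was 1.26-fold (0.34, SE 0.082, adjusted p = 0.0045), with methanol cultures more spread out than LoaOOH cultures. PDC1, the main isozyme, had 14.33, 14.31 and 14.22 in LoaOOH cultures, against 14.73, 14.76 and 14.66 in methanol cultures. PDC1 fell 1.35-fold with no overlap (-0.43, SE 0.049, adjusted p = 3.92e-05; 0.01, not called, in the spike-in scaling).

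Alcohol dehydrogenases of the list all rose, where 36.8% of all probe sets rose. ADH5, a minor isozyme, had values of 12.31, 12.37 and 12.36 in LoaOOH cultures, against 11.62, 11.81 and 11.76 in methanol cultures, a rise of 1.54-fold (0.62, SE 0.057, adjusted p = 9.25e-06). ADH3, the mitochondrial isozyme, which takes part in moving reducing equivalents across the inner membrane, had 13.27, 13.25 and 13.28 in LoaOOH cultures, against 12.89, 12.84 and 12.79 in methanol cultures. ADH1, the main cytosolic enzyme of ethanol production, had 14.61, 14.67 and 14.63 in LoaOOH cultures, against 14.32, 14.33 and 14.28 in methanol cultures. Groups were apart in each of these genes, and the rises were 1.35-fold for ADH3 (adjusted p = 1.76e-05) and 1.25-fold for ADH1 (adjusted p = 7.51e-05).

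In the glycerol branch the phosphatase genes rose and the dehydrogenase genes fell, the falls in the deposited scaling alone. GPD1, the glycerol-3-phosphate dehydrogenase known for its induction by osmotic stress, had values of 12.79, 12.83 and 12.71 in LoaOOH cultures, against 13.11, 13.16 and 13.06 in methanol cultures. It fell 1.26-fold (-0.33, SE 0.049, adjusted p = 0.000193; 0.11, not called, in the spike-in scaling). GPD2, the isozyme that balances NADH without oxygen, had 7.73, 7.41 and 7.40 in LoaOOH cultures, against 8.02, 7.96 and 7.78 in methanol cultures. It fell 1.32-fold (-0.41, SE 0.095, adjusted p = 0.00357; 0.04, not called, in the spike-in scaling), although LoaOOH replicate 1 lay near methanol replicate 3. The rises of the phosphatases were small. GPP1, the more generally made form, averaged 14.35 ± 0.051 in LoaOOH cultures and 14.18 ± 0.033 in methanol cultures, a rise of 1.12-fold (adjusted p = 0.0075). GPP2, the form that osmotic stress induces, averaged 13.91 ± 0.045 in LoaOOH cultures and 13.71 ± 0.019 in methanol cultures, a rise of 1.15-fold (adjusted p = 0.00242).

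Main and other isozymes were set against each other within arrays. Among 8 main isozyme genes 3 rose (37.5%) and 3 fell (37.5%), with a median difference of -0.01. Among 13 other isozyme genes 7 rose (53.8%) and 3 fell (23.1%), with a median of 0.20. Of all probe sets 36.8% rose and 41.9% fell. Among the falls of both classes only that of GPM2 holds in the spike-in scaling. The 6 single enzymes and subunits had 2 falls (33.3%) and no rise (median -0.06). These classes came from textbook roles and are given as counts only. All 4 members that differed by 0.5 or more are among the 13 other isozyme genes, but 6 of the 8 main isozyme genes lie in the brightest 1% of probe sets, against 2 of the 13 others, and no probe set in that range reached 0.5.

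The change of a pair is the difference of its log2 values within an array, averaged over LoaOOH arrays minus the average over methanol arrays. Of 17 measured pairs, 12 did not overlap between groups. Each of these had an exact two-sided permutation p of 0.1, which is the smallest possible here, so that none can pass a threshold of 0.05. Among all single probe sets 81.1% did not overlap, and no such share was computed for other pairs of genes. The level of such a difference depends on the probes, and only its change is read. PDC6 minus PDC1 was -5.48, -5.46 and -5.38 in LoaOOH cultures, against -7.05, -7.04 and -6.99 in methanol cultures. The change of 1.59 is a 3.00-fold shift of the ratio towards PDC6. A shift of whole arrays leaves it the same, and with quantile normalisation it was 1.6. PDC5 minus PDC1 was -3.69, -3.73 and -3.65 in LoaOOH cultures, against -4.30, -4.48 and -4.59 in methanol cultures, a 1.70-fold shift towards PDC5. EMI2 minus GLK1 was -1.93, -1.92 and -1.93 in LoaOOH cultures, against -2.73, -2.70 and -2.69 in methanol cultures, a 1.72-fold shift towards EMI2.

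Other pairs shifted less, and not all moved away from the main form. ENO1 gained on ENO2 by 0.21 on the log2 scale and ADH5 on ADH1 by 0.29, both without overlap. ADH3 gained on ADH1 by 0.10 without overlap, but by 0.02 with quantile normalisation (exact permutation p = 0.6). GPM2 lost against GPM3 by 1.44 and against GPM1 by 1.57, and GLK1 lost against HXK2 by 0.21. TDH1 lost against TDH3 by 0.08. The change of GPM3 minus GPM1 was -0.13, but -0.02 with quantile normalisation (exact permutation p = 0.8) and -0.08 without methanol replicate 3 (exact permutation p = 0.2). TDH1, TDH3, GPM1, ENO1, ENO2, CDC19, PDC1 and ADH1 are among the brightest probe sets of the array, where the signal may not follow the message. The changes of pairs that hold any of them, those of PDC6 and PDC5 against PDC1 included, are thus those of the array values. The groups overlapped for HXK1 minus HXK2 (change of 0.05, exact permutation p = 0.6), GPP2 minus GPP1 (0.03, exact permutation p = 0.6), GPD1 minus GPD2 (0.07, exact permutation p = 0.5), PYK2 minus CDC19 (-0.15, exact permutation p = 0.3) and the 6-phosphofructo-2-kinase pair. Partners with near-identical coding sequence, such as ENO1 and ENO2 or GPP1 and GPP2, can share labelled RNA on an array. No name of the 31 probe sets carries the suffix for shared probes, and how much signal such partners share was not tested.

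**Figure D3:**
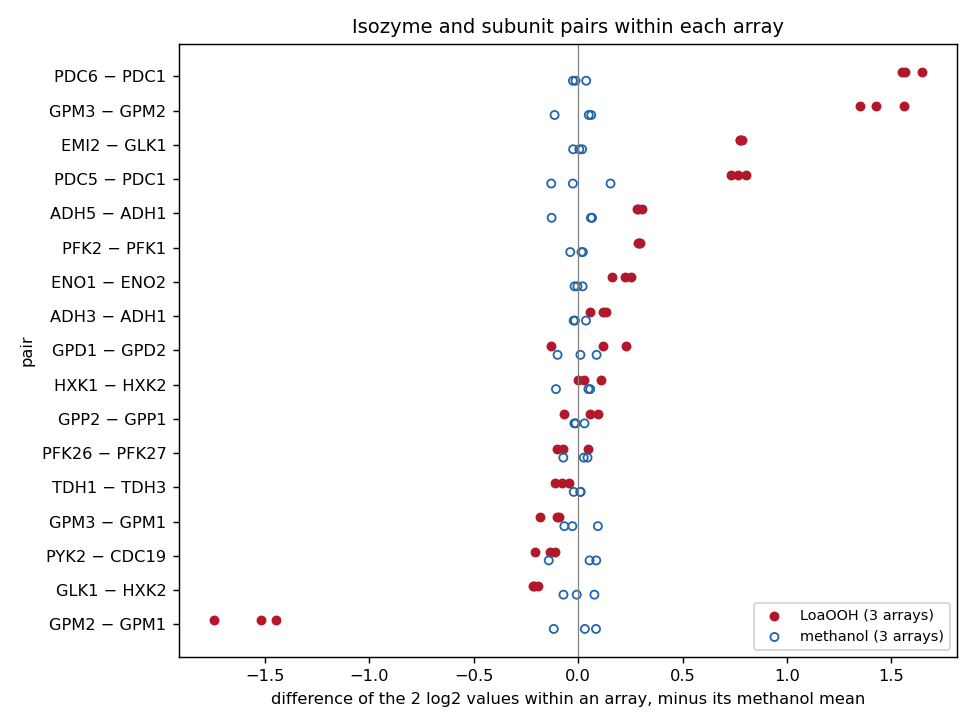
Difference of the log2 values of a pair of genes within each array, minus the mean of that difference over the 3 methanol arrays; filled points are LoaOOH arrays and open points methanol arrays. PDC6 against PDC1 (1.59) and GPM3 against GPM2 (1.44) shifted most upwards, GPM2 against GPM1 (-1.57) most downwards, and 5 of the 17 pairs overlapped.

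Many members lie at the bright end of the array, where differences were mostly small. Of the 31 members, 11 were among the brightest 1% of probe sets, a limit chosen after the values were seen, and 4 of these were called, ADH1 higher and PDC1, ENO2 and CDC19 lower. Among all 55 probe sets in that range 27.3% were called, with a median difference in size of 0.0639, and the 11 members had 0.0674. Below that range the median size was 0.344 over 5443 probe sets and 0.334 over 20 members. Of these members 18 were called, or 90%, against 79.2% of the 5443 probe sets. How far the signal was near its ceiling was not tested, so a difference not called for TDH3, FBA1, TPI1, PGK1, GPM1, ENO1 or TDH1 is no measure of a constant message.

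**Figure D4:**
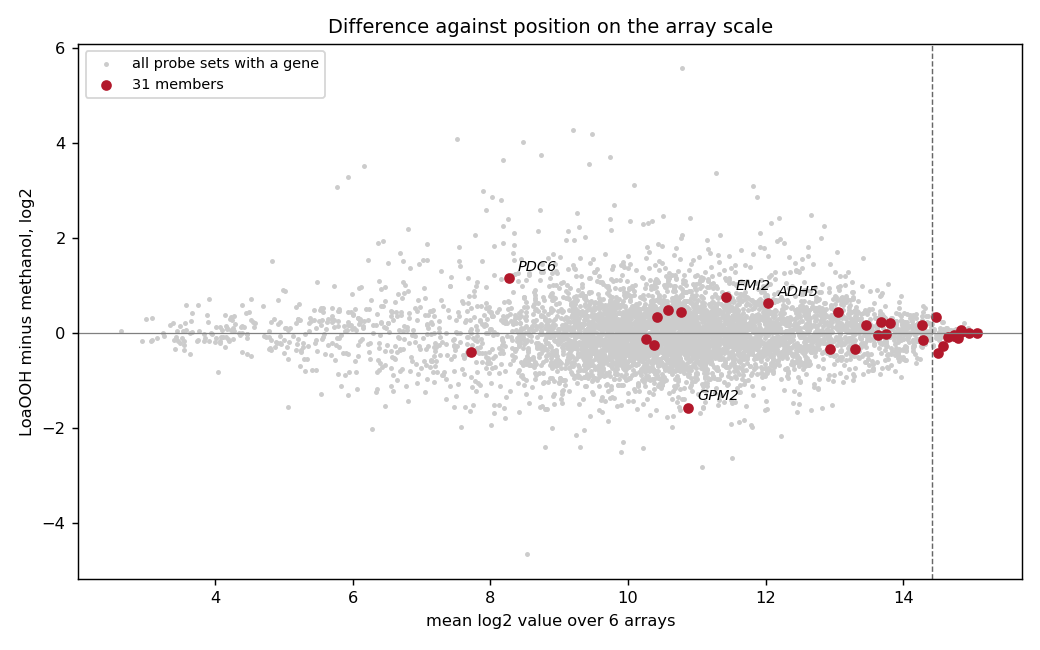
LoaOOH minus methanol difference on the log2 scale against the mean log2 value over the 6 arrays, for all 5498 probe sets with a gene (grey) and the 31 members (red); the dashed line marks the start of the brightest 1%. To its right lie 55 probe sets with small differences, 11 of them members, and the 4 named members differ by 0.5 or more.

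Regulators of glycolysis were looked at beside the enzymes. Of 15 measured, 7 rose, or 46.7% against 36.8% of all probe sets, 3 fell, or 20% against 41.9%, and 5 were not called (median 0.11). In the spike-in scaling 12 were higher and 1 lower (median 0.557, against 0.41 over all probe sets). On that scale 62.1% of all probe sets were higher and 10.2% lower. TYE7, a transcription factor that activates glycolytic genes, had values of 12.48, 12.46 and 12.47 in LoaOOH cultures, against 13.36, 13.35 and 13.39 in methanol cultures. It fell 1.86-fold (-0.90, adjusted p = 8.76e-08; -0.45 in the spike-in scaling). GCR1 (-0.02, adjusted p = 0.771) and GCR2 (0.003, adjusted p = 0.959), also activators, were not called, and the spike-in scaling called both higher, at 0.43 and 0.45. RAP1, another regulator of this list, rose by 0.18 without overlap (adjusted p = 0.00599), and by 0.62 in the spike-in scaling. MIG1, the repressor of glucose-repressed genes, had 11.31, 11.28 and 11.21 in LoaOOH cultures, against 10.24, 10.19 and 9.96 in methanol cultures, a rise of 2.19-fold (adjusted p = 9.23e-07). RGT1, which represses hexose transporter genes, rose 1.33-fold, and SNF1, the kinase that relieves glucose repression, fell by 0.58 on the log2 scale (-0.13, not called, in the spike-in scaling).

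Of 7 alcohol dehydrogenase genes outside the list, 6 rose and 1 fell (median 0.57), the same counts as in the spike-in scaling. These are 85.7% and 14.3%, against 36.8% and 41.9% of all probe sets, or 62.1% and 10.2% in the spike-in scaling. ADH2, which oxidises ethanol and is repressed by glucose, had 8.22, 8.39 and 8.19 in LoaOOH cultures, against 6.85, 6.81 and 6.92 in methanol cultures, a rise of 2.64-fold (adjusted p = 8.38e-08). ADH6, an NADPH-dependent enzyme of broad substrate range, rose 2.49-fold (adjusted p = 2.21e-08). ADH4, a zinc-regulated isozyme in yeast, fell 1.71-fold (-0.78, adjusted p = 1.14e-06; -0.33 in the spike-in scaling).

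Around glycerol, 4 of 12 genes of its transport and use and of the NADH shuttles rose, or 33.3% against 36.8% of all probe sets. Another 6 fell, or 50% against 41.9%, and 2 were not called (median -0.07). In the spike-in scaling 7 were higher and 1 lower (median 0.377), where 62.1% of all probe sets were higher and 10.2% lower. The dihydroxyacetone kinase genes went opposite ways: DAK2 had 8.05, 7.99 and 8.02 in LoaOOH cultures, against 6.30, 5.94 and 6.21 in methanol cultures, a rise of 3.65-fold (adjusted p = 9.74e-08), while DAK1 fell 1.47-fold (-0.55, adjusted p = 1.43e-05; -0.11, without a call, when scaled to the spike-ins). GCY1, a glycerol dehydrogenase, fell by 0.85 (-0.40 when scaled to the spike-ins) and NDE2, an external NADH dehydrogenase of mitochondria, rose by 0.37 on the log2 scale. Of 9 regulators of the osmotic pathway that controls glycerol synthesis, 4 rose (44.4%), 2 fell (22.2%) and 3 were not called. Of all probe sets 36.8% rose and 41.9% fell. In the spike-in scaling 7 of these regulators were higher and 1 lower (median 0.563). STE11 (0.46) and HOG1 (0.40), kinases of that pathway, rose, and the membrane sensors SHO1 (-0.73) and SLN1 (-0.55) fell, SLN1 without a call in the spike-in scaling. Of 6 genes of gluconeogenic steps 4 rose (66.7%) and 1 fell (16.7%), against 36.8% and 41.9% of all probe sets. In the spike-in scaling 5 of these were higher and 0 lower. PCK1 (1.25) and FBP1 (0.97), which drive the reverse of glycolysis, had the largest rises, and PYC2, a pyruvate carboxylase, fell (-0.37; 0.08, not called, in the spike-in scaling).

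**Figure D5:**
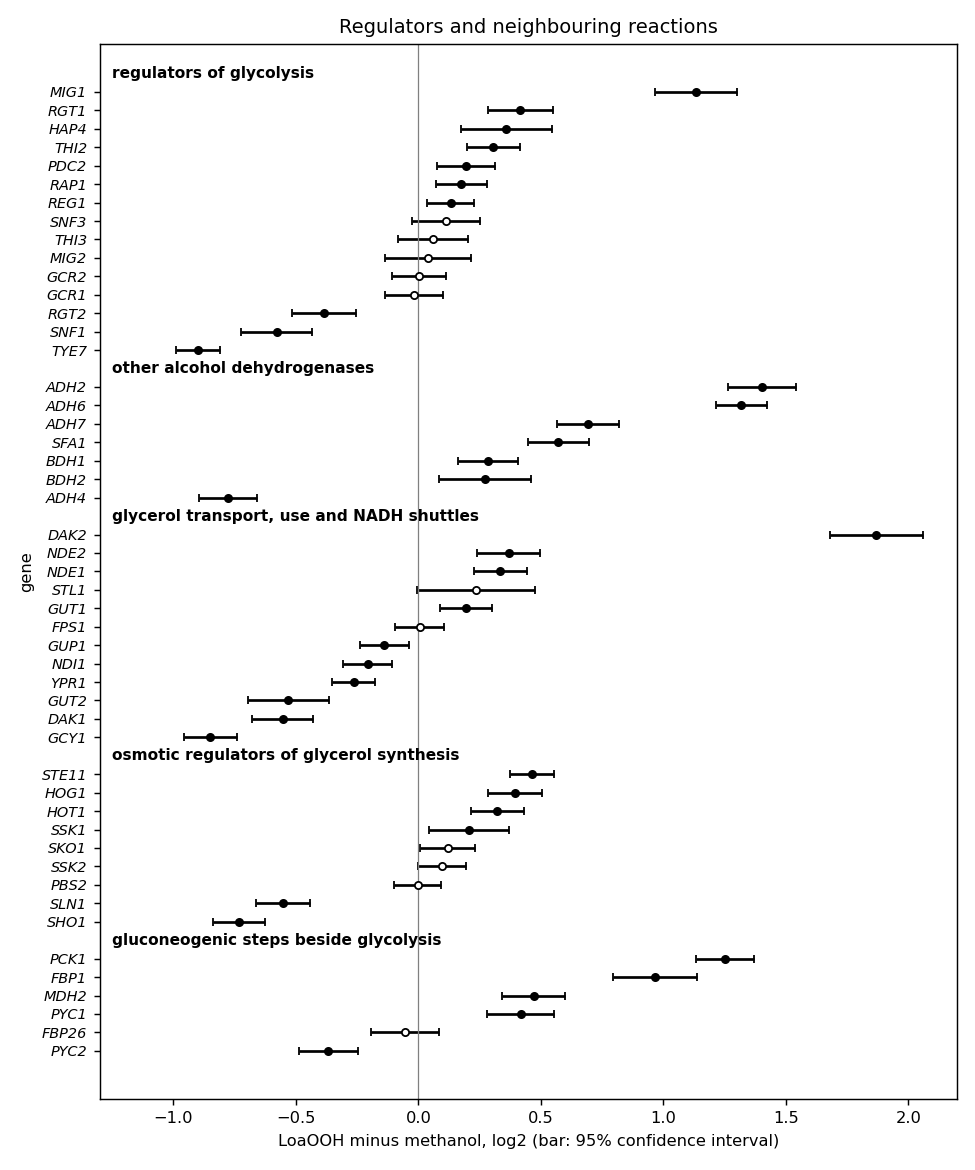
LoaOOH minus methanol difference on the log2 scale, with its 95% confidence interval from limma, for genes that regulate glycolysis or act beside it, in 5 lists; filled points were called at an adjusted p under 0.05 and open points were not. DAK2 (1.87), ADH2 (1.40), ADH6 (1.32) and PCK1 (1.25) lie highest and TYE7 (-0.90) lowest; of the 13 called falls in these lists, RGT2, GUP1, YPR1, NDI1 and PYC2 turn positive in the spike-in scaling.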

How the data were processed

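RNA of 6 cultures was measured, each on 1 array. The authors deposited log2 values; RMA and Partek are named in the submitters' processing notes, without versions or the arrays normalised together. RMA subtracts background, quantile-normalises and summarises probe sets, so a shift shared by most messages is hidden. The table held 5900 probe sets; 5498 named 1 gene, 137 were controls, and 265 without a gene were not tested. Symbols were updated through the gene table of assembly R64; the array's build is not given in the sources used here, so no coordinates are given. Groups came from sample titles.

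All 5498 were fitted in R 4.3.3 with limma 3.58.1, through lmFit and eBayes (two-sided, no covariate), with Benjamini-Hochberg adjustment over all of them and calls at an adjusted p under 0.05. Folds are 2 to the power of the log2 difference. The number of arrays limits precision (median SE 0.0527). The p-values rest on the spread between these cultures, which eBayes draws towards that of all probe sets. For genes with very close replicates the SE is thus larger than their own spread, as for GPM1 (SE 0.039, SD 0.002 in LoaOOH and 0.007 in methanol cultures). The procedure was tested on simulated data. Members, lists and tests were chosen with earlier results of these data known. All members were named, and from each other list the 2 largest called rises and falls. GCR1, GCR2 and RAP1 were added after their values were seen. The planned motif search was not run.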

Additional observations from a re-analysis of the deposited data

How the results depend on the processing

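Scaling to the poly-A spike-ins changed most. It called 24 members higher and 1 lower, and 3413 probe sets higher and 563 lower among all, against 2022 and 2305 in the deposited scaling. Without the trp probe sets, an alternative chosen after seeing the data because these 6 lie at background, it again called 24 and 1, with 3625 and 422 among all. The differences that turned positive, given first with all spike-ins and then without trp, were those of PGI1 (0.29 and 0.36), PFK1 (0.10 and 0.17), GPM3 (0.31 and 0.39), ENO2 (0.18 and 0.25), CDC19 (0.34 and 0.42), PYK2 (0.19 and 0.27), PDC1 (0.0135 and 0.0877), GPD1 (0.11 and 0.19) and GPD2 (0.0381 and 0.11). Called higher among these were PGI1, GPM3 and CDC19, and the 9 members not called before were also called higher. In this scaling each array was shifted by its own spike-in mean, which raises every difference by the same amount. The shifts were unequal within a group, so the spread behind the calls also changed. Why the spike-ins differed between groups was not tested.

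Outside these scalings 6 members changed their call, GPM3 and CDC19, which lost it, and TDH1, TPI1, ENO1 and PGK1, which gained it in at least the variance trend with robust fitting; the cause was not tested. That fit called 13 members higher and 13 lower. Quantile normalisation, median centring, array weights, the filters, an adjusted p under 0.01 and the replicate block gave 11 or 12 higher and 8 to 10 lower, GPD2 and PDC6 having no value without the dimmest 25%. Leaving out each array in turn gave 12 higher and 8 to 9 lower, and 1880 to 2016 higher and 2159 to 2269 lower among all. Deviations of same-numbered cultures correlated at 0.31, 0.05 and 0.26, and those of differently numbered cultures at -0.30 to 0.13. LoaOOH replicates 1 and 3 correlated most with the methanol replicate of their own number, and LoaOOH replicate 2 with methanol replicate 3. The numbers may thus pair some cultures but do not pair them throughout. With the number as a replicate block 12 members were higher and 9 lower. Of the 12 pairs without overlap, 2 no longer had the smallest exact permutation p with quantile normalisation. ADH3 minus ADH1 became 0.016 (exact permutation p = 0.6) and GPM3 minus GPM1 became -0.017 (exact permutation p = 0.8). The cause was not tested. Among the pairs that overlapped, HXK1 minus HXK2 (-0.01 to 0.07), GPP2 minus GPP1 (-0.01 to 0.08) and GPD1 minus GPD2 (-0.005 to 0.17) took both signs over the left-out arrays. Each gene had 1 probe set, so averaging probe sets could not change a value.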
